A study of Mus musculus with 11 samples.

Results

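Expression of 10 imprinted genes with known roles in growth control was followed across mouse oviduct, ovarian surface epithelium (OSE), the organoids grown from them and tumors grown from edited organoids. The genes were H19, Igf2, Igf2r, Dlk1, Meg3, Peg3, Cdkn1c, Grb10, Plagl1 and Mest. They were taken by name from the 18305 genes of the count table, all 10 were present, and their values were read in all 27 libraries.

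The libraries came from adult female mice and fell into 8 groups. Oviduct tissue (3 libraries), OSE tissue (3), oviductal organoids (3 lines) and OSE organoids (2 lines) were from C57BL/6 wild-type animals. Cas9-GFP organoids (3 lines) were oviductal organoids of mice that carry Cas9 and EGFP at the Rosa26 locus under the ubiquitous CAG promoter. The TBP clones (3) are Cas9-GFP oviductal organoids that received guides against Trp53 and other tumor suppressor genes, were selected with Nutlin-3a, a drug that stops cells with working p53, and were grown from single cells. The tumors (6) formed from TBP clones transplanted under the skin of immunodeficient NSG mice, so that each tumor library also holds RNA of host cells. Tumor-derived organoids (4) were grown from such tumors in the presence of Nutlin-3a and were named T1-mes and T3-mes (mesenchymal) or T2-epi and T4-epi (epithelial) after the histology of the tumor. Oviduct-derived groups from Cas9-GFP onward thus share the Cas9 and EGFP transgene, and the clones, tumors and tumor-derived organoids also share the guides. Tissue and tumor RNA was extracted with Trizol and organoid RNA with a column kit, and this difference in extraction cannot be told apart from the difference between tissue and culture.

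Imprinted genes are expressed mainly from the copy inherited from 1 parent, which is set by DNA methylation laid down in the germ line. Many act on fetal growth: paternally expressed Igf2 and Dlk1 are known as growth-promoting ligands, and the maternally expressed genes Igf2r, Grb10, Cdkn1c and H19 are known to restrain growth. Several of them are high in the embryo, fall in most tissues after birth and persist in some adult cell types. The counts do not separate the parental copies, so they give the level of a gene and say nothing of its imprint.

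The genes sit in a few clusters (GRCm38, GENCODE vM21). On chromosome 7, H19 (142575529 to 142578143) lies 72622 bp from Igf2 (142650766 to 142666816), and the same chromosome carries Cdkn1c (143458339 to 143461050) and Peg3 (6703892 to 6730431). On chromosome 12, Dlk1 (109452823 to 109463336) lies 77664 bp from Meg3 (109541001 to 109571726). Igf2r is on chromosome 17 (12682406 to 12769664), Grb10 on chromosome 11 (11930508 to 12038683), Plagl1 on chromosome 10 (13060504 to 13131694) and Mest on chromosome 6 (30723547 to 30748465).

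4 of the genes host microRNAs, 9 mature sequences with 9 different seeds in all. One from each host is shown, because these hosts were at or near 0 in the organoids described below. The sequences are from RefSeq (GRCm38.p6), 5′ to 3′, with the seed (bases 2 to 8) in capitals. CEL-Seq2 reads polyadenylated transcripts near their 3′ end and did not measure the microRNAs themselves.
mmu-miR-675-5p, in an exon of H19: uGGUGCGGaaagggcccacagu
mmu-miR-483-5p, in an intron of Igf2: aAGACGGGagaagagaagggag
mmu-miR-770-5p, in an exon of Meg3: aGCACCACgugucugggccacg
mmu-miR-335-5p, in an intron of Mest: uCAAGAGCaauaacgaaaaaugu

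The promoters of Meg3 and Igf2r are shown because these genes were the extremes of the list in culture, with no count in any organoid library and with counts in every one. Dlk1 is shown as the neighbour of Meg3. Each is the 250 bases before a RefSeq start (GRCm38.p6), written 5′ to 3′ on the strand of the gene with each CG in capitals. CG reads the same on both strands, and a count of it is a description of the letters in this window only.
Meg3, chr12:109540746-109540995, plus strand: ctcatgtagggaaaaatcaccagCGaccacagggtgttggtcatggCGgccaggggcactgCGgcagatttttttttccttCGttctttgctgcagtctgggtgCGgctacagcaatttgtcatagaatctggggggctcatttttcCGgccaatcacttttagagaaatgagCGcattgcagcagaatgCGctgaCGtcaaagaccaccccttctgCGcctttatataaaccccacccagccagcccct
Dlk1, chr12:109452573-109452822, plus strand: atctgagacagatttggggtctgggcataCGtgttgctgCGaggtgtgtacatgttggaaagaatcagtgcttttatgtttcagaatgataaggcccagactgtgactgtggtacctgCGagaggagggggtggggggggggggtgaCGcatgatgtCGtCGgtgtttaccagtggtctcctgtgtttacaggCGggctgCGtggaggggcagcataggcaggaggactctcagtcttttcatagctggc
Igf2r, chr17:12769707-12769956, minus strand: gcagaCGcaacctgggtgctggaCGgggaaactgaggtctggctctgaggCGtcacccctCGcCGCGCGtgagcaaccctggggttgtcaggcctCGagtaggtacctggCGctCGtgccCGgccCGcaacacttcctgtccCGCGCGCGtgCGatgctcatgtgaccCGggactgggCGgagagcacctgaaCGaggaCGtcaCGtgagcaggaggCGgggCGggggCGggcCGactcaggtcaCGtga
The Igf2r window held 27 CG, a number reached by 8.56% of 32851 promoter windows of that length. The Meg3 window held 10 CG (reached by 37.8% of windows) and the Dlk1 window 8 CG (reached by 43%), against a median of 6. Meg3 has a second RefSeq start, whose window (chr12:109545148-109545397, not shown) held 0 CG. RefSeq windows were found for 8 of the 10 genes, and none is shown for H19 and Cdkn1c. Among those not shown, 1 Grb10 window held 40 CG (reached by 1.31% of windows) and 1 Igf2 window 22 CG (14.8%). The other windows of these genes held 1 to 10 CG. Grb10 had no count in the clones and Igf2 had 1 count over all organoids. A link between CG number and level in culture was not tested.

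Total counts ran from 739248 to 2472821 in the tissues and C57BL/6 organoids, from 600579 to 1038141 in Cas9-GFP organoids, from 1995230 to 2051891 in tumor-derived organoids and from 936348 to 3083507 in tumors. The clones ran from 82239 to 4531767: clone 1 was so shallow that 1 count equals a high level, and a count of 0 there says little. Values are CPM, counts per 1000000 of a library's total after TMM scaling of that total over the 27 libraries, and intervals and limits from counts cover counting error only, since amplified copies of 1 molecule were not collapsed. Where all libraries of a group had no count, a fold is given as a lower bound against 3 counts over that group. Trp53 was read 0, 1 and 22 times in the clones and 20 to 57 times in the Cas9-GFP lines. Oviduct tissue carried the secretory markers Ovgp1 and Pax8 at a summed 72900 to 114000 CPM against 67.9 to 119 CPM in OSE tissue. OSE tissue carried granulosa cell markers at 3430 to 4110 CPM and steroidogenic markers at 6160 to 7530 CPM, while its mesothelial and OSE markers (407 to 558 CPM) overlapped those of oviduct tissue (282 to 449 CPM), so the libraries labelled OSE tissue carried markers of ovarian cells below the surface and were not set apart by the surface markers. The 2 OSE organoid lines differed in secretory markers (62.6 CPM in line 1 and 3420 CPM in line 2).

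**Figure D1:**
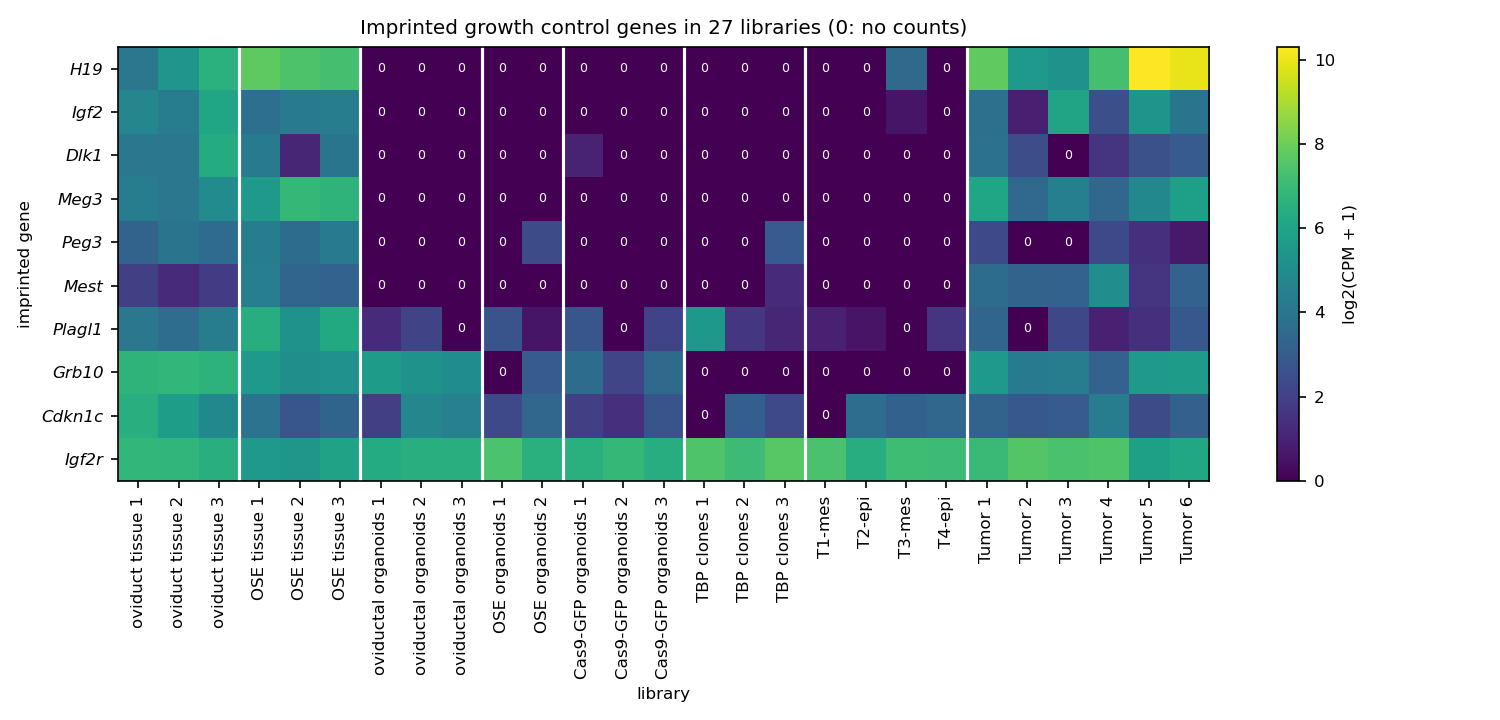
Heat map of log2(CPM + 1) for the 10 genes (rows) in the 27 libraries (columns, white lines between groups), with 0 printed where a library had no count. The block of 0 from the organoids to the tumor-derived organoids covers H19, Igf2, Dlk1, Meg3, Peg3 and Mest with few exceptions, while Igf2r has counts in every library.

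In the organoids as a whole, the genes ranged from no count in any library to counts in every library. Meg3 had 0 counts in all 15 organoid libraries, which allows at most 0.118 CPM over their summed depth. H19 had 22 counts in 1 library, Igf2 1 count and Dlk1 1 count. Mest was read 6 times, all in clone 3, and Peg3 38 times in 2 libraries. Both genes of each cluster pair, H19 with Igf2 and Dlk1 with Meg3, were therefore at or near 0 in culture, whichever parental copy is expressed. Igf2r was read in 15 of 15 organoid libraries and Cdkn1c in 13. Plagl1 was read in 12, but with only 44 counts in all and a median of 1.43 CPM, and Grb10 in 7, none of them a clone or tumor-derived culture.

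The 2 tissues were compared first, to give the level of each gene where it was not cultured. Oviduct tissue had higher Igf2, Dlk1, Igf2r, Grb10 and Cdkn1c, and OSE tissue had higher H19, Meg3 and Plagl1. By these calls the partners of both neighbouring pairs lay on opposite sides. For Igf2 and Dlk1 the calls hung on single libraries, as given below. Of 9 genes tested with edgeR, 5 were higher in oviduct (26.9% of all tested genes were called higher) and 3 were lower (24.3% called lower). The median log2 fold change of the 9 was 1.07, against 0 over all 8787 genes tested.

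Igf2, the fetal growth factor, was at 26.1, 19.7 and 67.2 CPM in oviduct tissue and at 12.7, 17.5 and 19.1 CPM in OSE tissue. The groups did not overlap, although the third oviduct library stood well above the rest. The log2 fold change was 1.17 ± 0.39 (SE; adjusted p = 0.0214, edgeR). Dlk1, a membrane protein related to Notch ligands, was at 16.7, 15.8 and 80.6 CPM in oviduct and 18.6, 1.16 and 14.9 CPM in OSE, and these groups overlapped. Its log2 fold change was 1.53 ± 0.61 (SE; adjusted p = 0.0481, edgeR). Without the third oviduct library the change of Igf2 was 0.53 (adjusted p = 0.171, edgeR) and that of Dlk1 0.39 (adjusted p = 0.526), and both calls were also lost without any single OSE tissue library.

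Igf2r, the receptor that carries Igf2 to the lysosome for breakdown, was at 113, 111 and 86.8 CPM in oviduct and 44.9, 43.1 and 60 CPM in OSE tissue. Every oviduct library was above every OSE library (log2 fold change 1.07 ± 0.19 SE, adjusted p = 0.00022, edgeR). Grb10, an adaptor that dampens signals from insulin and IGF receptors, was at 104, 112 and 100 CPM against 47.4, 33.8 and 36.6 CPM, with a log2 fold change of 1.44 ± 0.19 (SE; adjusted p = 1.27e-05, edgeR). The 3 values of a group lay close together for this gene. Cdkn1c, which encodes the cyclin-dependent kinase inhibitor p57, was at 87.1, 52.6 and 26.9 CPM against 14.4, 5.82 and 9.02 CPM. The lowest oviduct library was still above the highest OSE library, and the log2 fold change was 2.55 ± 0.40 (SE; adjusted p = 8.27e-05, edgeR).

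The genes higher in OSE tissue were the 2 long noncoding RNAs and a zinc finger factor. H19 was at 217, 172 and 154 CPM in OSE tissue against 16.7, 40.8 and 95.3 CPM in oviduct (log2 fold change -1.88 ± 0.38 SE, adjusted p = 0.000813, edgeR). Meg3 was at 46.5, 115 and 104 CPM against 18.9, 15.8 and 30.5 CPM (-2.01 ± 0.33 SE, adjusted p = 0.000134, edgeR). Plagl1, a transcription factor that halts the cell cycle when overexpressed, was at 83.8, 38.4 and 74.8 CPM against 16, 11.8 and 19.6 CPM (-2.05 ± 0.30 SE, adjusted p = 4.85e-05, edgeR). None of these groups overlapped, but the genes had been picked by the test and the share of all genes without overlap was not computed. Mest, a hydrolase-fold protein of embryonic mesoderm, was at 20.3, 9.31 and 8.49 CPM in OSE and 2.9, 1.32 and 2.44 CPM in oviduct tissue, too few counts to be tested. Peg3, a zinc finger protein, was at 8.71, 14.5 and 11 CPM in oviduct and 19.5, 11.6 and 18 CPM in OSE tissue (log2 fold change -0.59 ± 0.33 SE, adjusted p = 0.154, edgeR).

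Cell makeup differed between the tissues along with these genes. Smooth muscle markers summed to 5570 to 6990 CPM in oviduct and 515 to 744 CPM in OSE tissue, fibroblast markers to 3200 to 5650 and 1610 to 3090 CPM, and granulosa markers to 28.3 to 92.9 CPM in oviduct against the 3430 to 4110 CPM given above. Their part in the differences was not tested, and in bulk libraries fewer cells of a type and less RNA per cell cannot be told apart. In a fit over all 27 libraries 2 of the genes were called higher and 0 lower. Of all 12810 genes in that fit 1565 were called higher and 1119 lower, against 2362 and 2133 of 8787 in the main fit.

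Oviductal organoids were then set against the oviduct tissue of origin. 8 of 9 genes tested were lower in the organoids (24.2% of all genes called lower) and 0 were higher (18.7% called higher), with edgeR. At an unadjusted p under 0.05 and with DESeq2 the number higher was also 0. The 5 genes at 0 in the organoids passed the filter on low counts through the tissue alone and could only come out lower. Plagl1, with 7 counts over the lines, and Cdkn1c, with 6 counts in line 1, also needed the tissue to pass. The median log2 fold change of the 9 was -6.87 as fitted and -4.19 with the 5 genes at 0 in the organoids set at their bound, against -0.02 over all genes tested.

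The ligands and noncoding RNAs had no count in any of the 3 oviductal lines. Against the tissue means, H19 was at least 81.5-fold lower (adjusted p = 0.000202, edgeR), Igf2 at least 60.3-fold (adjusted p = 9.18e-05), Dlk1 at least 60.4-fold (adjusted p = 0.00048) and Meg3 at least 34.8-fold (adjusted p = 4.96e-05). Peg3 was also at 0 in the 3 lines and at least 18.2-fold lower (adjusted p = 0.000147, edgeR). For these 5 genes the tissue levels are those given above, and no tissue library was at 0. Mest was at 0 as well but had only 7 counts in the tissue, which bounds the fold at 3.56, and it was not tested.

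The remaining genes kept some expression. Plagl1 was at 1.43, 3.39 and 0 CPM in the organoids, which was 3.36 ± 0.62 lower than tissue on the log2 scale (adjusted p = 0.00094, edgeR). Cdkn1c was at 2.86, 26.2 and 21.7 CPM, all below the lowest tissue library, by a log2 fold change of -1.84 ± 0.58 (SE; adjusted p = 0.0229, edgeR). Without the first oviduct tissue library this was -1.32 (adjusted p = 0.147). Grb10 was at 50.1, 38.1 and 31.5 CPM, below all 3 tissue libraries (-1.41 ± 0.21 SE, adjusted p = 0.000221, edgeR). Igf2r was at 80.1, 86.3 and 87.3 CPM, values that overlapped those of the tissue (-0.31 ± 0.19 SE, adjusted p = 0.199, edgeR).

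Stromal markers moved with the genes that were lost. The 7 fibroblast markers summed to 0 to 5.08 CPM in oviductal organoids, the 6 smooth muscle markers to 0.656 to 6.68 CPM and the 5 endothelial markers to 0 to 0.846 CPM (114 to 134 CPM in oviduct tissue). Col1a1 and Col1a2 had no count in any of the 3 lines. Epithelial markers were at 4160 to 5310 CPM in the organoids against 1450 to 1810 CPM in tissue. The part of the missing stroma in the lower values was not tested.

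OSE organoids showed a similar set of genes at 0, with one gene going the other way. 8 of 10 genes tested with edgeR were lower than in OSE tissue (18.6% of all genes called lower) and 1 was higher (14.5% called higher). The median of the 10 was -5.87 on the log2 scale as fitted and -3.73 with the 5 genes at 0 set at their bound, against -0.06 over all genes tested. Here too the 5 genes at 0 passed the filter on low counts through the tissue alone and could only come out lower. Plagl1, Peg3 and Grb10, with 8, 8 and 14 counts over the lines, also passed only through the tissue. All 8 genes called lower were thus kept for testing by the group where they were high. Both comparisons of organoids with tissue use different libraries on each side.

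H19 was at least 198-fold lower in the OSE lines (adjusted p = 0.000413, edgeR), Meg3 at least 97-fold (adjusted p = 0.00157), Igf2 at least 18-fold (adjusted p = 0.00269), Mest at least 13.9-fold (adjusted p = 0.00772) and Dlk1 at least 12.6-fold (adjusted p = 0.0292). All 5 had no count in either line. Plagl1 was at 5.34 and 0.507 CPM, below every OSE tissue library (-4.61 ± 0.76 SE, adjusted p = 0.00486, edgeR). Peg3 was at 0 and 4.05 CPM (-2.77 ± 0.84 SE, adjusted p = 0.0425, edgeR) and Grb10 at 0 and 7.09 CPM (-3.25 ± 0.82 SE, adjusted p = 0.0229, edgeR). Line 2, the line with the secretory markers, carried all the counts of both genes.

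Igf2r was the gene that rose, to 165 and 93.7 CPM from 44.9, 43.1 and 60 CPM in the tissue (log2 fold change 1.39 ± 0.30 SE, adjusted p = 0.0131, edgeR). Cdkn1c was at 3.82 and 9.63 CPM and overlapped the tissue (-0.47 ± 0.59 SE, adjusted p = 0.58, edgeR). Without OSE tissue library 1, 5 genes were called lower and 0 higher. Without library 2 no gene was called higher (Igf2r adjusted p = 0.071), and without library 3, 5 were called lower. Each of these 3 fits lost the calls of Peg3 and Grb10. Of all genes tested, 1171 of 9928 were lower and 763 higher without library 1, and 1198 and 765 of 9996 without library 2. Without library 3 these numbers were 1079 and 689 of 9482, against 1902 and 1485 of 10232 in the main fit. Markers of granulosa cells were at 5.34 to 9.12 CPM and those of fibroblasts at 0 to 18.2 CPM in these lines, and their part in the differences was not tested.

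The change from tissue to organoid was compared between the origins with an interaction term. For Igf2r the change in oviduct was 1.59 ± 0.34 (SE) smaller on the log2 scale than that in OSE (interaction -1.59, adjusted p = 0.0107, edgeR). The term was fitted for 11458 genes, and the share of them called is not given here. The levels of oviductal lines and tissue overlapped, while both OSE lines lay above their tissue. The interaction was -4.1 ± 1.62 for Peg3 (adjusted p = 0.131, edgeR), 1.91 ± 0.71 for Grb10 (adjusted p = 0.102), 1.36 ± 1.21 for Plagl1 (adjusted p = 0.524) and -1.23 ± 1.05 for Cdkn1c (adjusted p = 0.51). Both Peg3 and Grb10 depended on the OSE lines. Without line 2 the interaction was 0.58 for Peg3 (adjusted p = 1, edgeR) and 7.32 for Grb10 (adjusted p = 0.000305), and without line 1 it was -4.89 for Peg3 (adjusted p = 0.0182) and 1.11 for Grb10 (adjusted p = 0.113). DESeq2 called Grb10 (1.88, adjusted p = 0.034) and not Peg3 (adjusted p = 0.125). For the other 5 genes the interaction could not be estimated, as both kinds of organoid were at 0.

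**Figure D2:**
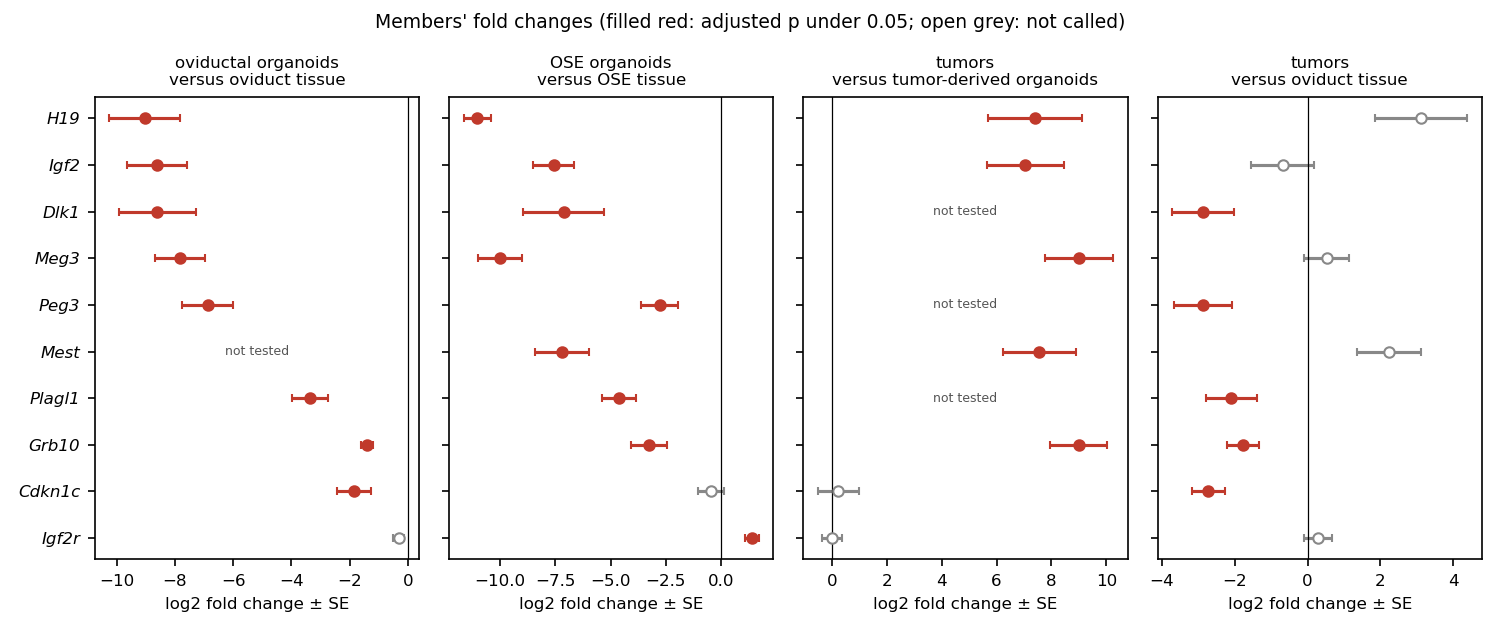
Log2 fold change ± SE (horizontal axis) of each gene (vertical axis) in 4 comparisons, filled red where the adjusted p was under 0.05 and open grey where it was not. Genes far to the left in the organoid panels and far to the right against tumor-derived organoids are those with no or nearly no count in the organoids, whose fitted change depends on the small count that edgeR adds, while Igf2r lies near 0 except in OSE organoids.

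Between the organoids of the 2 origins, 3 genes had enough counts for a test and edgeR called 0 higher (0.0864% of all genes called higher) and 0 lower (0% called lower) in the oviductal lines. Grb10 was at 31.5 to 50.1 CPM in oviductal lines and at 0 and 7.09 CPM in OSE lines. The log2 fold change was 3.33 ± 0.87 (SE; adjusted p = 0.243 with edgeR and 0.0109 with DESeq2). It was the 1 gene higher at an unadjusted p under 0.05, and none was lower. Igf2r differed by -0.58 ± 0.30 (SE; adjusted p = 0.524, edgeR) and Cdkn1c by 1.28 ± 0.94 (adjusted p = 0.67).

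Cas9-GFP organoids share the oviductal origin with the C57BL/6 lines but come from another mouse line. Grb10 was lower in them, at 11.5, 3.45 and 10.7 CPM against 50.1, 38.1 and 31.5 CPM. The groups did not overlap, and the log2 fold change was -2.11 ± 0.38 (SE; adjusted p = 0.00172, edgeR). In the fit of all 27 libraries this call was lost (-2.16, adjusted p = 0.0575). Of 2 genes tested 1 was lower (13.3% of all genes called lower) and 0 were higher with edgeR (13% called higher), with DESeq2 and at an unadjusted p under 0.05. Igf2r was at 91.7, 116 and 84.5 CPM (0.20 above the C57BL/6 lines on the log2 scale, adjusted p = 0.501, edgeR). Cdkn1c, at 2.87, 1.73 and 5.35 CPM with a mean of 3.31 CPM against 16.9 CPM, was not tested for lack of counts. Without a filter on low counts it was called (adjusted p = 0.00288, edgeR). Summed secretory markers were 234 to 247 CPM in the Cas9-GFP lines and 14800 to 23100 CPM in the C57BL/6 lines, and their part in the lower Grb10 was not tested. H19, Igf2, Meg3, Peg3 and Mest had no count in the Cas9-GFP lines, and Dlk1 had 1.

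In the TBP clones Grb10 was not seen at all. It had 0 counts in the 3 clones and 24 in the 3 Cas9-GFP lines, at least 18-fold lower by the means. These counts were too few for the filter, and without it edgeR gave an adjusted p of 0.000497 and DESeq2 one of 0.0633. Clone 1 with its 82239 counts adds little to this, and the 0 rests on clones 2 and 3. Igf2r, the 1 gene tested, was at 179, 134 and 197 CPM (0.82 above the Cas9-GFP lines on the log2 scale, adjusted p = 0.389, edgeR). None of the 10 genes was called higher (0.389% of all genes called higher) or lower (0.428% called lower) with edgeR or with DESeq2, and Igf2r alone was higher at an unadjusted p under 0.05. Cdkn1c was at 0, 7.5 and 3.88 CPM. Plagl1 read 44.7 CPM in clone 1, which is 4 counts, and 2.14 and 1.14 CPM in the others. Clone 3 also held the 30 counts of Peg3 and the 6 counts of Mest.

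Tumor-derived organoids, like the clones, had no count of Grb10, Meg3 or Dlk1. Of 2 genes tested, edgeR and DESeq2 called 0 higher (0% of all genes called higher) and 0 lower (0% called lower) than in the clones, and none had an unadjusted p under 0.05. Peg3 and Mest were also at 0 in all 4 cultures. Igf2r was at 163, 84.5, 138 and 135 CPM in T1-mes, T2-epi, T3-mes and T4-epi. The change of Igf2r was -0.42 ± 0.35 (log2, SE; adjusted p = 0.803, edgeR) and that of Cdkn1c, at 0, 11.9, 8.25 and 9.71 CPM, was 0.52 ± 0.99 (adjusted p = 0.924).

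T3-mes was the only culture with H19, at 22 counts or 10.7 CPM, and with Igf2, at 1 count. Fibroblast markers summed to 6370 CPM in T3-mes and 2610 CPM in T1-mes, against 25.6 CPM in T2-epi and 85.9 CPM in T4-epi. T1-mes thus had fibroblast markers and no H19. Between mes and epi cultures, with 2 libraries each, 2 genes could be tested, and edgeR and DESeq2 called 0 higher (1% of all genes called higher) and 0 lower (0.123% called lower). At an unadjusted p under 0.05 there were also none. Igf2r differed by 0.46 on the log2 scale (adjusted p = 0.642, edgeR) and Cdkn1c by -1.37 (adjusted p = 0.681).

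The tumors had counts of several genes that were at 0 in the clones. Of 8 genes tested against the TBP clones, H19, Igf2, Meg3, Grb10 and Mest, 5 in all, were higher (20.1% of all genes called higher) and 0 were lower (11.7% called lower) with edgeR, with DESeq2 and at an unadjusted p under 0.05. The median log2 fold change of the 8 was 6.12 as fitted and 4.63 with the 4 genes at 0 in the clones set at their bound, against 0.16 over all genes tested. Against the tumor-derived organoids 5 of 7 tested genes were higher (15.1% of all genes called higher), again H19, Igf2, Meg3, Grb10 and Mest, and 0 were lower with both tools (12.3% called lower) and at an unadjusted p under 0.05. The 2 comparisons share the tumor libraries. The 4 genes at 0 in the clones and the 3 at 0 in the tumor-derived organoids passed the filter through the tumors alone. In these comparisons they could only come out higher. Mest in the clones, with 6 counts in clone 3 only, was also too sparse to pass without the tumors. So were H19 and Igf2 in the tumor-derived organoids, with counts in T3-mes only. All 5 genes called in each comparison were thus kept for testing by the group where they were high. The median of the 7 was 7.39 as fitted and 6.46 with the 3 genes at 0 in the organoids at their bound, against 0.02 over all genes tested.

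H19 was at 223, 45.4, 37.9, 153, 1270 and 998 CPM in Tumors 1 to 6. All 6 were above every organoid library, and the tumors themselves spread widely. The mean was at least 961-fold above the clones (adjusted p = 0.00554, edgeR), and the log2 fold change against tumor-derived organoids was 7.39 ± 1.71 (SE; adjusted p = 0.00942). Igf2 was at 13.1, 0.874, 64.4, 4.73, 39.1 and 15.3 CPM. It was read in all 6 tumors, if only by 1 count in Tumor 2, and its order differed from that of H19: Tumor 3 was highest in Igf2 and lowest in H19. The mean of Igf2 was at least 48.4-fold above the clones (adjusted p = 0.0163, edgeR). In tumor-derived organoids, with 1 count against 366, the pooled ratio was 263 (95% interval 46.9 to 10400 from counting error alone; adjusted p = 0.00428, edgeR).

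Meg3 was at 67.7, 10.5, 21, 9.46, 26.8 and 55.2 CPM in the tumors, none of which came near 0. It was at least 67.2-fold above the clones (adjusted p = 0.00259, edgeR) and at least 89.2-fold above the tumor-derived organoids (adjusted p = 0.00165). Its neighbour Dlk1 was at 13.6, 4.37, 0, 1.89, 4.84 and 6.75 CPM, too few counts for a test, and at least 11.1-fold and 14.7-fold higher than in clones and tumor-derived organoids by the means. Both RNAs of this cluster were thus present in 5 of 6 tumors and without a count in the clones and tumor-derived organoids. Grb10 was at 45.3, 18.4, 19, 8.52, 45.2 and 51.6 CPM, at least 66.2-fold above the clones (adjusted p = 0.00125, edgeR) and 87.9-fold above the tumor-derived organoids (adjusted p = 0.000781).

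Mest was at 11.5, 8.74, 8.47, 32.2, 1.94 and 8.59 CPM, with Tumor 4 highest and Tumor 5 lowest. It was 3.67 ± 1.09 (log2, SE) above the clones (adjusted p = 0.0249, edgeR) and at least 33.4-fold above the tumor-derived organoids (adjusted p = 0.00493). The calls of Igf2 and Mest against the clones were lost without clone 2 (adjusted p = 0.0597 and 0.108) or clone 3 (0.0864 and 0.0525, edgeR), when 3 genes were called. Of all genes 1559 of 10949 were higher without clone 2 and 1631 of 10917 without clone 3, against 2105 of 10473 in the main fit. Peg3 was at 0.614 to 3.82 CPM in 4 tumors and at 0 in 2, and Plagl1 ran from 0 to 9.28 CPM with a median of 2.67 CPM. Against the clones Plagl1 changed by -0.23 ± 1.45 and Cdkn1c by 0.73 ± 0.62 (log2, SE; adjusted p = 0.931 and 0.396, edgeR). Igf2r ran from 57.1 to 188 CPM with a median of 143 CPM, and differed from the tumor-derived organoids by 0.01 ± 0.36 (adjusted p = 0.982) and from the clones by -0.38 ± 0.40 (adjusted p = 0.496).

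**Figure D3:**
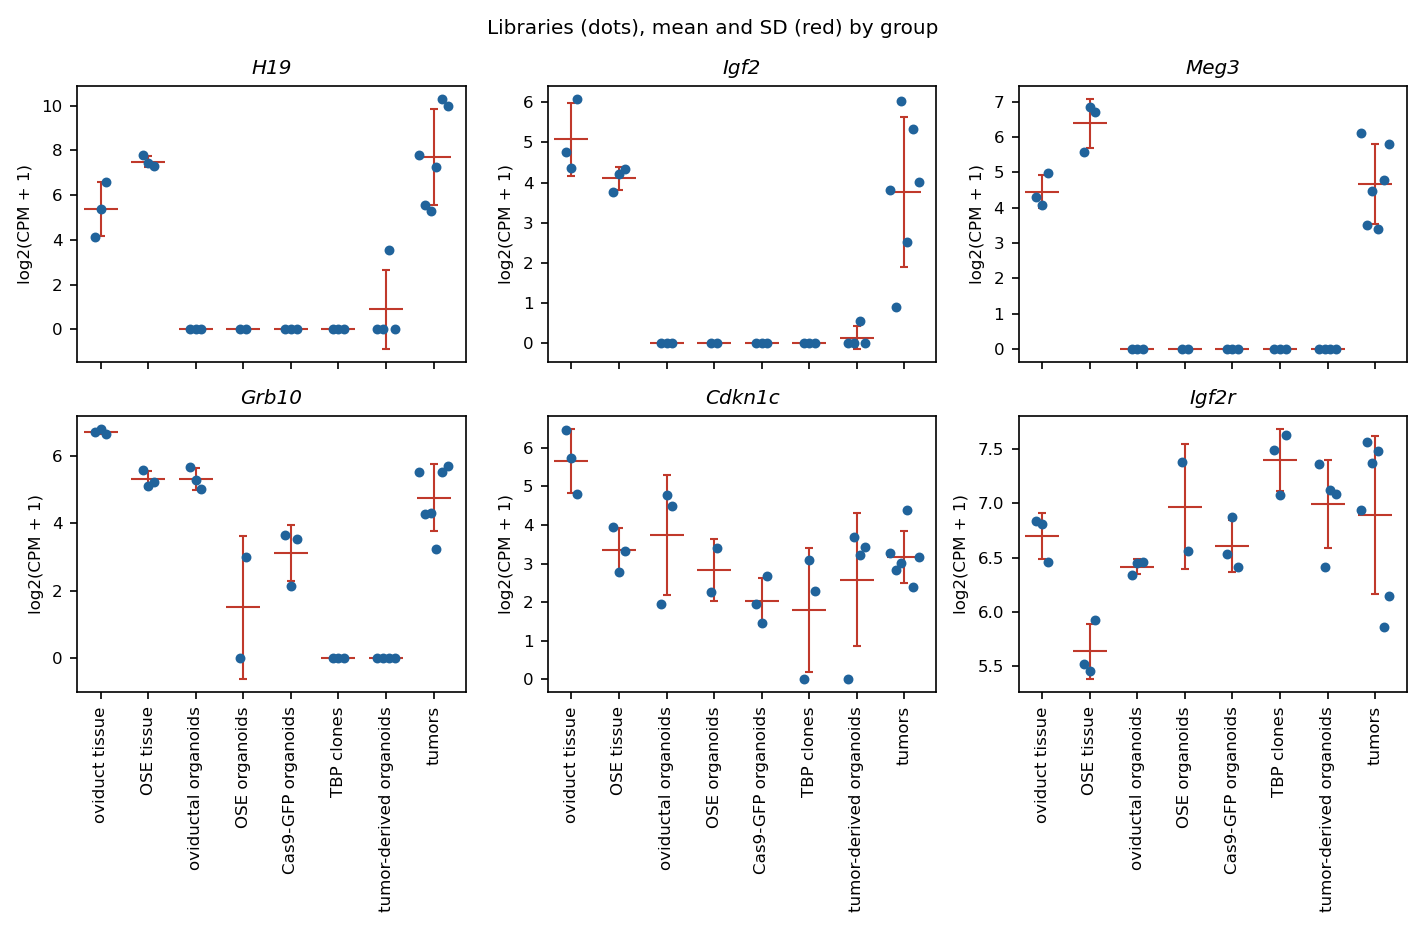
Log2(CPM + 1) of 6 genes by group, with a dot per library and the mean and SD in red. H19, Igf2 and Meg3 are present in both tissues and the tumors and near 0 in every organoid group, Grb10 steps down from C57BL/6 to Cas9-GFP organoids to the clones, and Igf2r stays at 43.1 CPM or more in every library.

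Markers of stromal cells were high in the tumors as well. Fibroblast markers summed to 9250 to 56300 CPM in the tumors against 0.228 to 22.3 CPM in the clones, smooth muscle markers to 205 to 1150 CPM against 0 to 0.456 CPM, endothelial markers to 41.9 to 171 CPM and skeletal muscle markers to 31.2 to 3620 CPM. All 7 fibroblast and all 3 skeletal muscle markers were read in each tumor. The counts cannot assign a transcript to graft or host, and the part of these cells in the higher values was not tested.

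The tumors were ordered by H19 exactly as by the 3 skeletal muscle markers Ckm, Acta1 and Mylpf (613, 137, 31.2, 309, 3620 and 1640 CPM in Tumors 1 to 6). Spearman's rho was 1 over 6 tumors, which was seen among 120 pairs of a gene with a marker list, and the pair was picked after the values were seen, so it is given without a test. Mest followed the fibroblast markers with a rho of 0.94 and Igf2 ran against them with -0.89. Grb10 followed the 6 smooth muscle markers with 0.94, and Meg3 and Plagl1 did so with 0.89 each. These markers were at 1070, 205, 728, 251, 927 and 1150 CPM in Tumors 1 to 6. Cdkn1c ran against the OSE and mesothelial markers with -0.89, and the other pairs lay nearer to 0. In T3-mes, which had 22 counts of H19, the same muscle markers were at 0.485 CPM.

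**Figure D4:**
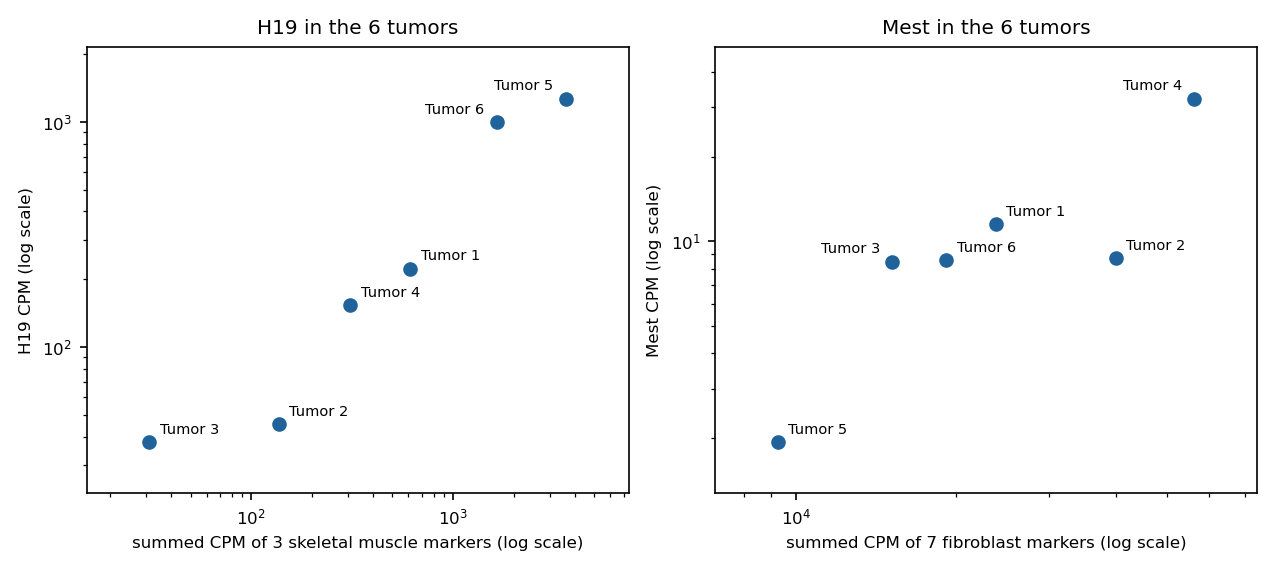
Each dot is 1 of the 6 tumors, with H19 CPM against the summed CPM of 3 skeletal muscle markers (left) and Mest CPM against the summed CPM of 7 fibroblast markers (right), on log axes. Tumors 5 and 6 are highest for H19 and muscle markers, and Tumor 4 is highest for Mest and fibroblast markers.

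Compared with oviduct tissue, the tumors had less of 5 of the 10 genes and more of none by the test. Dlk1, Peg3, Cdkn1c, Grb10 and Plagl1 were lower (22.4% of all genes called lower), and 0 were higher with edgeR (23.7% called higher). H19 and Mest were higher at an unadjusted p under 0.05 and with DESeq2. The median log2 fold change of the 10 was -1.22, against 0.08 over all genes tested. Cell makeup differed as well: smooth muscle markers summed to 205 to 1150 CPM in the tumors and 5570 to 6990 CPM in the tissue, secretory markers to 6.99 to 60.6 and 72900 to 114000 CPM, and fibroblast markers to 9250 to 56300 and 3200 to 5650 CPM. Their part in the differences was not tested.

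Cdkn1c was at 4.2 to 19.9 CPM in the tumors (median 7.55 CPM), below each oviduct tissue library, by -2.72 ± 0.46 on the log2 scale (SE; adjusted p = 0.00107, edgeR). Grb10 was also below all tissue libraries (-1.77 ± 0.44, adjusted p = 0.00821), as were Dlk1 (-2.87 ± 0.84, adjusted p = 0.0187), Peg3 (-2.86 ± 0.80, adjusted p = 0.0147) and Plagl1 (-2.09 ± 0.69, adjusted p = 0.0315). The tumor and tissue libraries did not overlap for any of these 5 genes, which had been picked by the test. The share of all genes without overlap was not computed. Without oviduct tissue library 3 the calls of Dlk1 (-1.67, adjusted p = 0.205), Peg3 (adjusted p = 0.055) and Plagl1 (adjusted p = 0.117) were lost. Without library 2 those of Peg3 (adjusted p = 0.0759) and Plagl1 (0.0668) were, and without library 1 that of Plagl1 (0.0994, edgeR). H19 was 3.12 ± 1.26 above the tissue (log2, SE; adjusted p = 0.0648 with edgeR and 0.0233 with DESeq2) and Mest 2.23 ± 0.88 (adjusted p = 0.0598 and 0.0362). Values of both overlapped those of the tissue. Igf2 (-0.68 ± 0.86, adjusted p = 0.544), Meg3 (0.52 ± 0.62, adjusted p = 0.516) and Igf2r (0.29 ± 0.39, adjusted p = 0.566, edgeR) did not pass the test.

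Other imprinted genes give the setting. Of 59 listed, 51 were in the table. Each count of called genes in this and the following lists is to be read beside the share of all tested genes called in that comparison. That share was 18.7% higher and 24.2% lower in oviductal organoids against tissue, 14.5% and 18.6% in OSE organoids, 26.9% and 24.3% in oviduct against OSE tissue, 20.1% and 11.7% in tumors against clones, 15.1% and 12.3% against tumor-derived organoids, and 23.7% and 22.4% against oviduct tissue. The median log2 fold change of all genes lay between -0.06 and 0.16 in these comparisons. In oviductal organoids against tissue 3 of 25 tested were higher and 9 lower, with a median log2 fold change of -0.64. In OSE organoids 3 of 30 were higher and 15 lower, with a median of -1.24. Slc22a3, an organic cation transporter near Igf2r, went from 151 CPM in oviduct tissue to 0 counts in the organoids (at least 241-fold lower, adjusted p = 6.31e-07, edgeR), and Nnat, a small membrane proteolipid, from 56.1 CPM to 0 (at least 89.8-fold, adjusted p = 1.48e-05). In OSE organoids Nnat again had 0 counts (138 CPM in the tissue), as did Nap1l5 (652 CPM) and Ndn (22.4 CPM). Rian, a noncoding RNA of the same cluster as Meg3, went from 31.2 CPM to 0 (at least 34.1-fold lower, adjusted p = 0.00119, edgeR). Kcnq1ot1, a noncoding RNA of the imprinted domain of Cdkn1c, rose in OSE organoids from 61.4 to 325 CPM (2.41 ± 0.32 on the log2 scale, adjusted p = 0.00238, edgeR). Loss of counts in culture was therefore not common to all imprinted genes.

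In the tumors against tumor-derived organoids, 6 of 26 other imprinted genes tested were higher and 6 lower, with a median log2 fold change of 0.34. Against the clones 8 of 27 were higher and 1 was lower (median 0.11). The single gene lower than in clones was Gnas, which encodes a G protein subunit, at 727 against 1810 CPM (-1.32 ± 0.23, adjusted p = 0.00193, edgeR). Cdh15, a cadherin of muscle, was at 30 CPM in the tumors and 0 in the clones (adjusted p = 0.00402, edgeR), and the receptor kinase Axl was at 293 against 28.4 CPM (3.25 ± 0.55, adjusted p = 0.00156). In the tissues Nap1l5 and Rian were higher in OSE (652 against 7.61 CPM and 31.2 against 2.61 CPM), on the side of Meg3, and Slc22a3 was higher in oviduct (151 against 1.94 CPM), on the side of Igf2r. There 7 of 30 other imprinted genes were higher in oviduct and 11 lower.

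Genes of the IGF pathway other than Igf2 and Igf2r changed in both directions. In oviductal organoids against tissue 5 of 14 tested were higher and 9 lower (median log2 fold change -2.04). Igf1, the second IGF ligand, went from 186 CPM to 0 counts (at least 299-fold lower, adjusted p = 4.26e-06, edgeR), and the binding protein gene Igfbp6 from 121 CPM to 0 (adjusted p = 4.62e-07). Both IGF ligands were thus without a count in these 3 lines. Stc2, which blocks the protease that frees IGF from its binding proteins, rose from 14.9 to 95.1 CPM (2.69 ± 0.29, adjusted p = 2.01e-05, edgeR). Stc1 of the same list fell from 229 to 15.6 CPM (-3.82 ± 0.35, adjusted p = 5.03e-06, edgeR). Igf1r, through which both ligands signal, was named after its values were seen: it was at 482 CPM in oviductal organoids and 194 CPM in oviduct tissue (1.30 ± 0.24, adjusted p = 0.000797, edgeR). In OSE organoids 3 of 15 IGF pathway genes were higher and 7 lower (median -1.52), with Igf1 at 1.52 against 150 CPM (-6.32 ± 0.66, adjusted p = 0.00109, edgeR).

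In the tumors Igf1 and several binding proteins were higher than in the cultures. Against tumor-derived organoids 4 of 14 IGF pathway genes were higher and 1 lower (median log2 fold change 0.73). Igf1 was at 40.2 CPM against 0 (at least 113-fold higher, adjusted p = 0.00015, edgeR), Igfbp2 at 65.4 against 0.121 CPM, Igfbp5 at 43 against 0.713 CPM (5.80 ± 0.81, adjusted p = 0.000662) and Igfbp3 at 163 against 13 CPM (3.65 ± 0.75, adjusted p = 0.00517). The RNA-binding protein gene Igf2bp2 was lower, at 28.7 against 100 CPM (-1.78 ± 0.49, adjusted p = 0.0216, edgeR). Against the clones 8 of 15 were higher and 3 lower (median 2.46). Compared with oviduct tissue 4 of 14 were higher and 5 lower, with Igf1 at 40.2 against 186 CPM (-2.25 ± 0.36, adjusted p = 0.000798, edgeR). Between the tissues 6 of 14 were higher in oviduct and 3 lower.

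The other cyclin-dependent kinase inhibitors moved in both directions. In oviductal organoids 3 of 5 tested were higher than in tissue and 1 was lower: Cdkn1a rose from 105 to 577 CPM, Cdkn2a from 3.36 to 117 CPM and Cdkn2b from 13.4 to 90.9 CPM, while Cdkn2c fell from 90.2 to 20 CPM (adjusted p from 2.7e-06 to 0.000768, edgeR). In OSE organoids the same 4 genes were called, each with the same sign (adjusted p from 0.00168 to 0.0253, edgeR). Cdkn2a was lower in Cas9-GFP than in C57BL/6 organoids, at 4.84 against 117 CPM (-4.50 ± 0.31, adjusted p = 2.77e-06, edgeR), beside the lower Grb10 of those lines. In the tumors Cdkn1a was at 105 CPM against 697 CPM in the clones (-2.74 ± 0.33, adjusted p = 0.000255, edgeR).

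Of 17 genes that keep or erase imprints, 2 of 11 tested were higher and 1 lower in oviductal organoids, and 0 of 14 higher and 6 lower in OSE organoids. Trim28, a corepressor that protects methylated imprints, averaged 311 CPM in the OSE lines and 1130 CPM in their tissue (-1.84 ± 0.28, adjusted p = 0.00363, edgeR) and at 281 and 418 CPM in oviductal organoids and tissue (-0.59 ± 0.22, adjusted p = 0.0491). Dppa3, an oocyte factor, went from 61.8 CPM in OSE tissue to 0 (adjusted p = 0.000502, edgeR). In tumors against clones 2 of 11 tested were higher and 2 lower. The maintenance methyltransferase Dnmt1 was at 64.4 CPM in tumors and 24.4 CPM in clones (1.33 ± 0.34, adjusted p = 0.0121, edgeR). Suz12 was lower, at 43.6 against 186 CPM (-2.18 ± 0.31, adjusted p = 0.000624, edgeR), as was Ezh2, at 25.3 against 57.7 CPM. Against tumor-derived organoids 1 of 11 was higher and 4 lower, and against oviduct tissue 6 of 11 were higher and 0 lower. Between the tissues 9 of 12 were lower in oviduct and 0 higher by edgeR.

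The genes whose levels ran most like those of the 10 across the 27 libraries were sought by Spearman correlation of log2(CPM + 1) among 8692 or 8693 genes, and since the libraries fall into groups with runs of 0 the values are a description only. Meg3 was closest to Smoc2 (0.985), Mfap2 (0.968) and Thbs4 (0.966), and H19 to Thbs4 (0.954), Mef2c (0.943) and Pdk4 (0.938). Smoc2, Mfap2 and Thbs4 encode proteins of the extracellular matrix, and Mef2c a transcription factor of muscle and endothelium. Igf2 was closest to Cd34 (0.939), Dlk1 to Slc22a3 (0.929), Grb10 to Tmem47 (0.941), Mest to Slc7a8 (0.941) and Peg3 to Gpm6a (0.878). For Igf2r (Ly6d, 0.8), Plagl1 (Rasl11b, 0.788) and Cdkn1c (Tmem127, 0.736) the closest gene was less alike, and these were the 3 genes read in most organoid libraries.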

How the data were processed

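RNA of 27 libraries was sequenced by CEL-Seq2 on a NextSeq500. The authors aligned the reads to GRCm38 with BWA, counted uniquely mapped reads on the right strand and deposited raw counts per gene, not corrected for molecular identifiers. Per the submitters' processing notes DESeq2 1.18.0 was also used. The counts covered 18305 genes after 1 spike-in entry, with 1 count, was left out. The libraries stand in 11 sample records and were assigned by their column names. Depth ran from 82239 to 4531767 counts.

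Groups were compared pairwise in edgeR 4.0.16 (R 4.3.3) by its quasi-likelihood test (TMM factors, filterByExpr on the libraries compared) with Benjamini-Hochberg adjustment over all genes tested and a threshold of 0.05. CPM use totals scaled by TMM factors of all 27 libraries. DESeq2 1.42.0, RLE size factors, no filter, a fit of all 27 libraries, a block for the replicate number and leaving out each library were alternatives. The tests were run on simulated data with 200 changed genes, none of them set to 0 in a whole group. The outcome is not given here, and it does not bear on genes at 0 in a group. Replicates are tissue samples, organoid lines, clones or tumors as labelled, and where nothing says that they came from separate animals p-values measure only the spread between these samples. The paper describes fewer independent clones per mutation set than there are clone libraries here. Each mouse received paired injections of the same clone, so tumors may share a mouse. The paper traces the tumor-derived organoids to the same original clone, with T1-mes and T2-epi from adjacent tumors. 33 pairs of replicates were compared, none was identical, and the chi-square divided by the number of genes was 2.53 or more.

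The 10 genes, the lists and the tests were chosen with earlier results of these data known. All 10 genes are named, with at most the 5 called genes of smallest p per list and comparison, and the 3 genes most like each (mean of at least 10 CPM, pseudocount of 1 CPM). Positions are from GENCODE vM21. Python 3.11.15 and matplotlib 3.10.9 were used for figures. Part of the targeted genes is not reported here.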

Additional observations from a re-analysis of the deposited data

Results flagged for a closer look

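Of 15 sets of 4 or 6 libraries with counts, 4 had a library far from the others by Dixon's test, which chance does in about 1 of 20 sets without ties. In the tumors Cdkn1c was at 19.9 CPM and Mest at 32.2 CPM in Tumor 4, which was also the tumor with the most fibroblast marker RNA (56300 CPM). In tumor-derived organoids H19 was at 10.7 CPM in T3-mes with no count in the other 3 cultures, and Igf2 at 0.485 CPM in T3-mes, which is 1 count and cannot be read as expression. With 3 libraries at 0 any count in the fourth passes this test, so for H19 and Igf2 it carries no information.

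The change of Igf2r from tissue to organoids differed between the origins: the interaction was -1.59 on the log2 scale, oviduct minus OSE (adjusted p = 0.0107, edgeR).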

How the results depend on the processing

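No called change reversed under any alternative run: 437 fold changes kept their side of the threshold and 38 did not, of which 27 came from leaving out a library, 10 from the fit of all 27 libraries and 1 from DESeq2 (Dlk1 between the tissues, adjusted p = 0.267). The 437 and 38 leave out runs in which the gene was not tested. Counts of called genes moved by over 1.5 times as follows, and the causes were not tested. In the fit of all 27 libraries, oviduct against OSE tissue had 2 higher and 0 lower, oviductal against OSE organoids 1 higher, Cas9-GFP organoids 0 lower and clones 1 lower. With DESeq2, oviductal against OSE organoids had 1 higher, tumors against oviduct tissue 2 higher and the interaction 2. Without a filter, Cas9-GFP organoids had 2 lower and clones 1 lower. Leaving out 1 library gave 3 to 5 higher between the tissues, 0 to 1 higher and 5 to 8 lower in OSE organoids, 0 to 1 higher and 0 to 1 lower between organoids, 1 to 2 lower in Cas9-GFP organoids, 0 to 1 lower in clones, 0 to 1 higher in mes organoids, 3 to 6 higher in tumors against clones, 0 to 1 higher and 2 to 5 lower against oviduct tissue, and 1 to 2 for the interaction. With 1 library left in a group, it was taken to vary like the others. All these counts are to be read beside the calls over all genes, which moved between runs as well. Between the tissues, for example, 1565 genes were higher and 1119 lower in the fit of all 27 libraries, against 2362 and 2133 in the main run.

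Replicate numbers were shared between tissues and between oviductal organoids and tissue. Same-numbered libraries deviated together only weakly (r of 0.04, 0.1 and 0.07, and of 0.03, 0.05 and 0.03), though each correlated best with its own number. A replicate block left 5 higher and 3 lower between the tissues and 8 lower in oviductal organoids, and changed 0 of 16 calls. Low counts limit Mest, Peg3 and Dlk1 most, and the shallow clone 1 every comparison with the clones.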
